A study of Homo sapiens with 24 samples.

Results

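The mitochondrial ribosome is built from proteins that are encoded in the nucleus, made in the cytosol and imported, and from RNA made inside the organelle. It has a small subunit, which reads the messenger RNA, and a large subunit, which joins the amino acids. It translates the protein genes of the mitochondrial genome, all of which code for parts of the respiratory chain and ATP synthase. The genes described here are the protein-coding genes of the A549 expression table whose symbols start with MRPL or MRPS followed by a digit. There were 78 of them among 58302 genes. By the known structure 51 of the 78 products belong to the large subunit and 26 to the small one, and the names do not always follow the subunit, since MRPS18A and MRPS30 sit in the large subunit. MRPS36 was kept under the naming rule but is known as a subunit of the 2-oxoglutarate dehydrogenase complex. Of the 77 ribosomal products, 46 were classed as having a bacterial counterpart and 31 as specific to mitochondrial ribosomes.

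A549 is an epithelial lung cancer cell line. The cells had been transduced with a lentivirus carrying GPD1, the cytosolic enzyme that makes glycerol-3-phosphate from dihydroxyacetone phosphate, or with a blank lentivirus (vector cells), and were kept with 10 mM metformin or without it. The groups were GPD1 cells with metformin, untreated GPD1 cells, vector cells with metformin and untreated vector cells, with 3 libraries of polyadenylated RNA in each. All 12 came from lentivirus-treated cells. The labels do not say what promoter drove GPD1, whether the cells were a clone or a pool, how long treatment lasted or whether replicates were separate cultures, so the p-values cover only the spread among the sequenced libraries, which may be technical. Metformin is a biguanide used in diabetes that is known to inhibit complex I of the respiratory chain.

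Levels are in FPKM, fragments per kilobase of exon and 1 M reads, and the 12 libraries held 13.3 to 18 M reads as estimated from the table's own steps. GPD1 averaged 13.5 ± 0.289 FPKM in metformin-treated and 15.9 ± 0.862 FPKM in untreated GPD1 cells, and 0.0537 ± 0.0251 and 0.0770 ± 0.0323 FPKM in the matching vector cells (SD, n = 3 each). The epithelial keratin genes KRT8 and KRT18 were at 64.4 to 111 and 104 to 149 FPKM over the 12 libraries. KRT19, the lung lineage genes NKX2-1, SFTPB and SFTPC, the blood gene PTPRC and the endothelial gene PECAM1 did not exceed 0.0869 FPKM in any library, DCN was listed at 0 in all of them and COL1A1 was at 2.24 to 5.41 FPKM. EPCAM was at 0.240 to 1.57 and CDH1 at 2.26 to 9.29 FPKM, and of the kidney lineage genes PAX8 was at 0.0255 to 0.162, PAX2 at 0.457 to 2.48 and CDH16 at 1.14 to 2.9 FPKM. Libraries were compared on log2(FPKM + 1) with limma over the 12607 genes that averaged 1 FPKM or more, and a gene was called at an adjusted p under 0.05. All 78 genes were tested.

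Transcription of nuclear genes for mitochondrial proteins is known to be driven in part by NRF1, by ETS-family factors such as GABP, and by YY1. RefSeq promoters (GRCh38.p14, from 250 bases before to 50 after the annotated start) were at hand for 69 of the 78 genes, in 85 promoters. The YY1 letters AAGATGGC, on either strand, were in 23 of the 85 promoters, or 27.1%, against 5.24% of 11671 promoters of the tested protein-coding genes and 2.89% of all 35116 promoters. The ETS letters CCGGAAGT were in 16.5% of the 85 promoters, against 8.09% and 4.14% of the same sets. The NRF1 letters (GCGC, any base, TGCGC) were in 11.8%, against 10.8% and 5.78%. The E-box CACGTG was in 10.6%, against 9.68% and 7.26%, and the cAMP response element TGACGTCA in 1.18%, against 3% and 1.85%. Each motif was counted on both strands, matches of different motifs may share bases, and a match describes letters and not a bound site. The median GC content was 60.3% for the 85 promoters and 65.3% for those of the tested genes.

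Of the 24 YY1 matches in these promoters, 18 read in the direction of the gene, and 16 lay after the start, all of them in the gene's direction. In promoters of the tested genes 73.8% of 637 matches read in the direction of the gene and 60.8% lay after the start. Of those 387 matches after the start, 342 read in the gene's direction. Matches are shown for some of the genes that were called the same way by metformin in both cell types under each scaling described below. Each has 11 bases on either side and the match in capitals. Not all such genes, nor matches too near a promoter's end, were open to display, so the set shown may be incomplete. MRPS30 lies on the plus strand with its stretch at chr5:44808949-44808978, MRPS24 on the minus strand at chr7:43869480-43869509, MRPL32 on the plus strand at chr7:42932143-42932172, MRPL52 on the plus strand at chr14:22829778-22829807 and chr14:22829812-22829841, and MRPL47 on the minus strand at chr3:179604712-179604741.

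MRPS30: aatcgcgggcaAAGATGGCggcggccaggt

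MRPS24: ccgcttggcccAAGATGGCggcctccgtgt

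MRPL32: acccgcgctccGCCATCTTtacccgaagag

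MRPL52 (upstream match): tacgatgacccAAGATGGCggagccgtgat

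MRPL52 (downstream match): aacccagattcAAGATGGCgacttcctgct

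MRPL47: ggcaggatgtgGCCATCTTaagtgagggca

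MRPS30 and MRPS24 carried the letters 14 and 20 bases after the start, and MRPL32 and MRPL47 carried them on the other strand before the start. The letters contain ATG, and whether a match lies where translation starts was not examined. MRPS30, MRPS24, MRPL32 and MRPL52 were higher with metformin in both cell types and MRPL47 was lower in both. The 21 genes with the YY1 letters had a median log2 change with metformin of -0.17 in GPD1 cells and -0.10 in vector cells, against -0.01 and -0.04 in the 48 matched genes without them.

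Levels spread widely among the 78 genes. MRPL12, a protein of the large subunit's stalk that also binds the mitochondrial RNA polymerase, had the highest mean over the 12 libraries, at 124 FPKM, followed by MRPS26 at 75.5 and MRPL41 at 68.6 FPKM. MRPL42 (1.82 FPKM), MRPL48 (1.86 FPKM) and MRPS18C (2.15 FPKM) had the lowest. Their merged exons were 959 to 16393 bases long, with a median of 2539 bases, against 4202 bases over all tested genes.

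The summed level of the 78 genes lay between 1132 and 1225 FPKM in all 12 libraries. It was 1157, 1168 and 1172 FPKM in metformin-treated GPD1 cells, against 1159, 1153 and 1184 FPKM in untreated GPD1 cells. It was 1137, 1206 and 1163 FPKM in metformin-treated vector cells, against 1225, 1158 and 1132 FPKM in untreated vector cells. These sums are on the deposited scale, and the groups overlapped within each cell type. They depend on scaling. Median-ratio factors, by which values are divided, averaged 0.882 in treated and 1.11 in untreated GPD1 cells, and 0.946 and 1.13 in vector cells. Unlike the sum of the 78 genes, the sums of other gene lists were far apart between treated and untreated libraries. The 79 cytosolic ribosomal protein genes summed to 15196 to 16043 FPKM in GPD1 cells with metformin and 7999 to 8310 FPKM without, and to 12486 to 13651 FPKM and 8267 to 8604 FPKM in vector cells with and without it. The 13 protein genes of the mitochondrial genome, which these ribosomes translate, summed to 12954 to 14429 FPKM with metformin and 64505 to 70846 FPKM without in GPD1 cells, and to 19746 to 21818 FPKM and 72796 to 74348 FPKM in vector cells. As a share of the FPKM outside the mitochondrial genome, the 78 genes made up 0.443 to 0.457% in metformin-treated and 0.587 to 0.592% in untreated GPD1 cells, and 0.480 to 0.490% and 0.577 to 0.625% in the matching vector cells. The median level of the 78 genes was 8.29 to 8.81 FPKM in metformin-treated and 9.465 to 10.51 FPKM in untreated GPD1 cells. In vector cells it was 7.72 to 8.03 FPKM with metformin and 9.505 to 10.04 FPKM without. These medians, unlike the sums, did not overlap between treated and untreated libraries. In bulk RNA, fewer cells of a kind and less RNA per cell cannot be told apart.

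**Figure D1:**
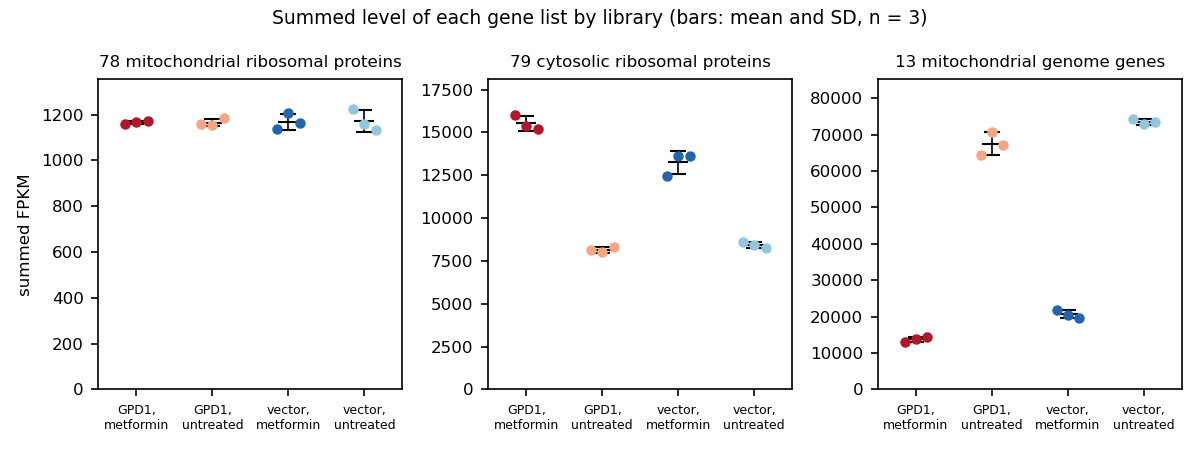
Summed FPKM per library (vertical axes, starting at 0) of the 78 mitochondrial ribosomal protein genes, 79 cytosolic ribosomal protein genes and 13 mitochondrial genome genes in the 4 groups of 3 libraries. Points are libraries and bars the mean and SD. On the deposited scale the sum of the 78 genes stays between 1132 and 1225 FPKM in all 12 libraries. The other sums separate metformin-treated from untreated libraries, as does the median of the 78 genes, which is not drawn.

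Metformin in GPD1 cells moved the genes in both directions: 19 rose, 28 fell and 31 were not called. On the deposited scale, 26.1% of all tested genes were higher, 48% lower and 74.2% called either way. The split depended on scaling: 33 were higher and 17 lower with median-ratio factors, and 41 and 13 with upper-quartile factors. The median log2 change of the 78 genes was -0.13, against -0.20 over all tested genes. That all-gene median was -0.26 when mitochondrial genes were left out of the totals, 0.07 after median-ratio scaling and 0.17 after upper-quartile scaling. Relative to it, the 78 genes' median was 0.07 on the log2 scale (0.06 to 0.13 over these scalings, but -0.06 with a trend on exon length removed and -0.09 with no filter on low values). The libraries of the groups did not overlap for 51 of the 78 genes, against 77.1% of all tested genes. Under all the scalings, 17 genes were higher and 13 lower, against 23% and 28.1% of all tested genes. Genes of the mitochondrial genome held 10.3 to 11.4% of the FPKM in treated and 30.2 to 32.3% in untreated GPD1 cells, and the part of this share in the split was not tested.

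Metformin in vector cells gave 15 genes higher, 34 lower and 29 not called, against 31.3% higher, 43.3% lower and 74.6% either way over all tested genes. After either median-ratio or upper-quartile scaling 32 were higher and 19 lower, while the shares of all tested genes above are on the deposited scale. The median change of the 78 genes was -0.16, against -0.10 over all tested genes, which was -0.18 without mitochondrial genes, 0.10 after median-ratio scaling and 0.11 after upper-quartile scaling. Groups did not overlap for 50 of the 78 genes, against 76.6% of all tested genes. Under all the scalings 14 were higher and 19 lower, against 27.9% and 32.1% of all tested genes.

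The comparisons of metformin in GPD1 and in vector cells use different libraries, scaled in the same way and fitted together. In both, 10 genes rose (MRPL32, MRPL41, MRPL44, MRPL52, MRPL53, MRPS15, MRPS24, MRPS26, MRPS30 and MRPS5), or 12.8% of the 78 against 19.7% of all tested genes. In both, 25 fell, or 32.1% against 35.1%. One gene, MRPL11, was called higher in GPD1 cells and lower in vector cells, but its call in vector cells ended under upper-quartile or median-ratio factors, with no filter and without each of 4 libraries (treated replicates 2 and 3 and untreated replicates 1 and 3 of vector cells). In all, 18 were called in neither, or 23.1% of the 78 against 12.3% of all tested genes. Across the 78 genes the changes had a Pearson r of 0.74 and a Spearman rho of 0.78, and across the 12607 tested genes 0.77 and 0.74. These describe genes, which are not independent replicates. The change in GPD1 cells had a Spearman rho of 0.38 with mean FPKM and -0.08 with exon length over the 78 genes. In vector cells these were 0.28 and -0.02. The mean FPKM includes the treated libraries, so it is not independent of the change.

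**Figure D2:**
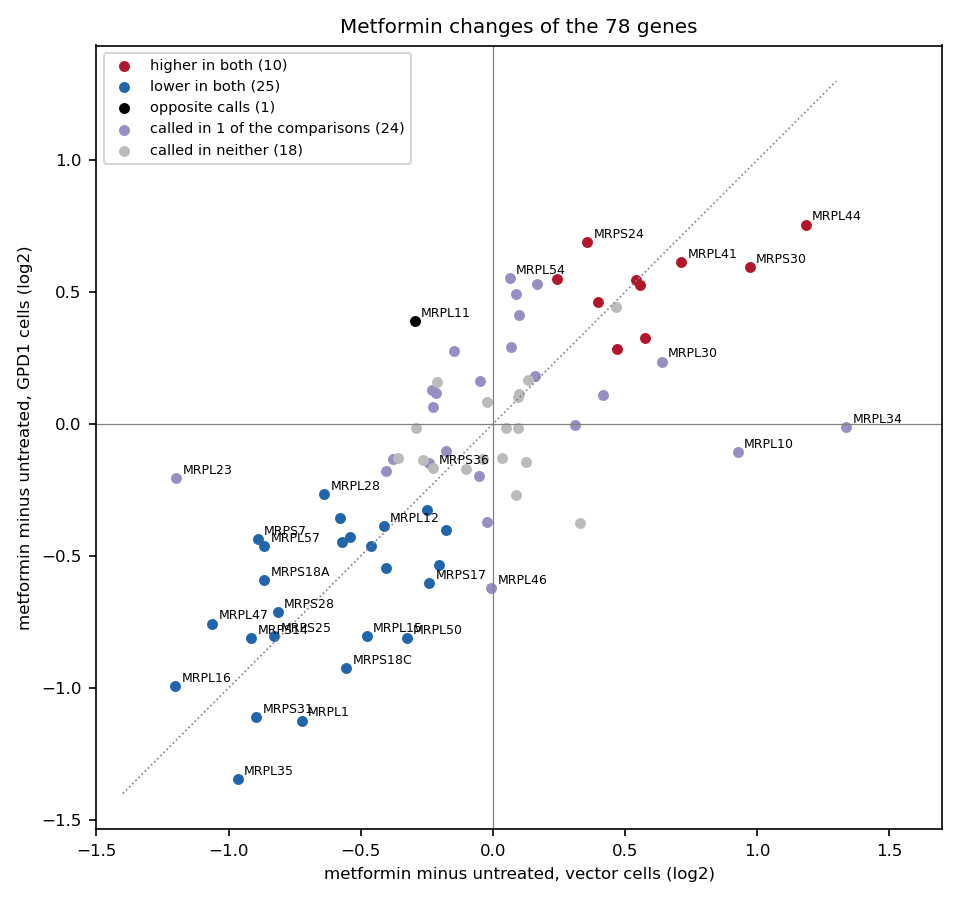
Metformin minus untreated on the log2(FPKM + 1) scale for the 78 genes, with vector cells on the horizontal axis and GPD1 cells on the vertical axis. Colours give the calls at an adjusted p under 0.05 and the dotted line marks equal changes. The 10 genes higher in both and the 25 lower in both lie at opposite ends, and MRPL11 is the one gene called in opposite directions, a call in vector cells that ended under median-ratio and upper-quartile factors.

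**Figure D3:**
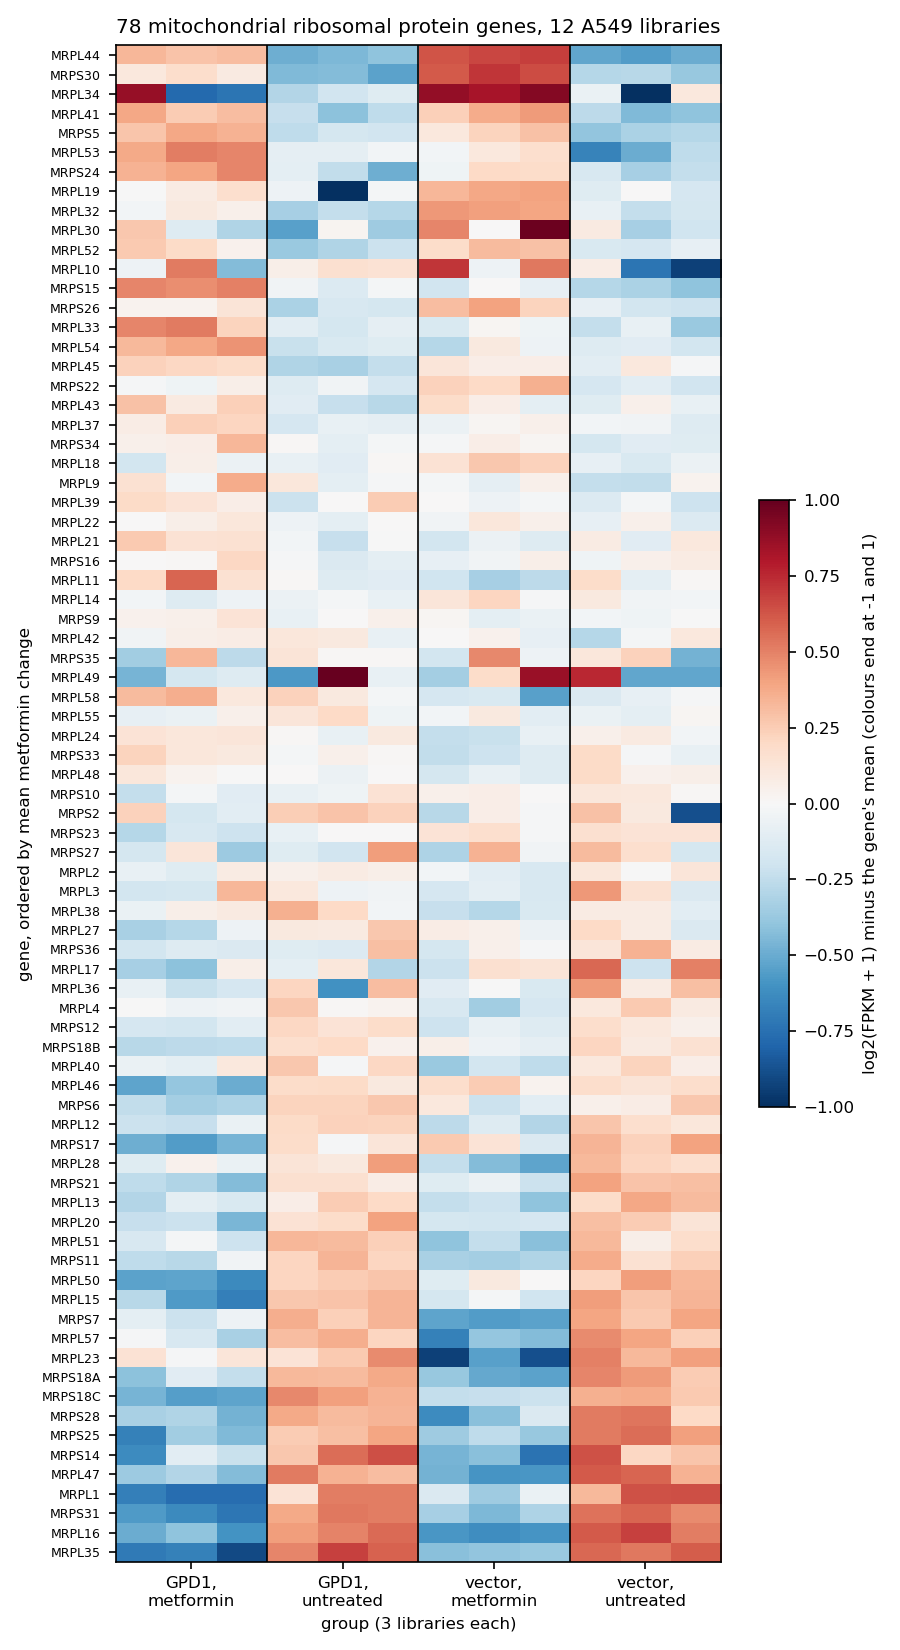
Heat map of the 78 genes (rows, ordered by their mean metformin change) in the 12 libraries (columns, 3 per group). Colour is log2(FPKM + 1) minus the gene's own mean, ending at -1 and 1. Metformin columns of both cell types are high at the top and low at the bottom, and MRPL34, MRPL49 and MRPL10 vary within groups.

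Among the genes that rose, MRPL44 had the largest log2 change in GPD1 cells. Its product is a large-subunit protein, specific to mitochondria among ribosomal proteins, with a fold like that of RNase III, and the gene lies at chr2:223957404-223967714 (GRCh38, plus strand). MRPL44 was at 43.7, 42.2 and 42.9 FPKM in metformin-treated GPD1 cells, against 24.3, 24.9 and 25.9 FPKM in untreated GPD1 cells. It was at 54.0, 55.4 and 56.2 FPKM in metformin-treated vector cells, against 23.8, 23.1 and 24.2 FPKM in untreated vector cells. Metformin libraries were higher in both cell types with no overlap, and highest in vector cells. The log2 change was 0.76 ± 0.04 (SE) in GPD1 cells and 1.19 ± 0.04 in vector cells (adjusted p by limma = 1.74e-08 and 5.51e-10).

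MRPS30, a large-subunit protein despite its name, lies at chr5:44808925-44820428 and shares no exon with another annotated gene. It was at 9.69, 10.2 and 9.57 FPKM in metformin-treated GPD1 cells, against 6.31, 6.35 and 5.84 FPKM in untreated GPD1 cells. In vector cells MRPS30 was at 14.2, 15.3 and 14.6 FPKM with metformin, against 7.14, 7.19 and 6.65 FPKM without. The rise was 1.59-fold in GPD1 cells and 2.1-fold in vector cells (limma, adjusted p = 9.56e-07 and 1.79e-08).

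MRPL41, also of the large subunit and the third most abundant of the 78, averaged 83.4 ± 4.03 FPKM with metformin and 54.3 ± 3.66 FPKM without in GPD1 cells (SD, n = 3 each). In vector cells it averaged 85.1 ± 5.52 FPKM with metformin and 51.6 ± 3.43 FPKM without. Its rises, 1.54-fold and 1.65-fold, were of like size and its groups did not overlap (limma, adjusted p = 1.21e-05 and 3.29e-06).

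Small-subunit genes among those that rose in both cell types were MRPS24, MRPS5, MRPS15 and MRPS26. MRPS24, the counterpart of bacterial protein S3, which lines the path of the messenger RNA, averaged 20.5 ± 1.09 FPKM with metformin and 12.4 ± 1.81 FPKM without in GPD1 cells. In vector cells it averaged 16.6 ± 1.62 and 12.7 ± 0.827 FPKM with and without metformin. MRPS5 rose 1.5-fold in each, and MRPS15, which binds ribosomal RNA, rose 1.51-fold in GPD1 cells and 1.21-fold in vector cells. MRPS26 rose 1.22-fold and 1.39-fold, but its log2 change in GPD1 cells was -0.01 with the length trend removed. MRPL32, whose bacterial counterpart is L32, rose 1.28-fold and 1.54-fold, and MRPL53 1.48-fold and 1.52-fold. MRPL53 shares 45.2% of its exon bases with CCDC142 on the same strand, which averaged 0.116 FPKM with metformin and 0.950 FPKM without in GPD1 cells, a level that was lower with metformin.

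MRPL54 and MRPL33 were among the 8 largest rises in GPD1 cells. MRPL54 averaged 19.4 ± 0.862 FPKM with metformin and 12.9 ± 0.493 FPKM without in GPD1 cells, and MRPL33 32.3 ± 3.57 and 22.0 ± 0.734 FPKM (SD, n = 3 each). MRPL33 shares 21.1% of its exon bases with BABAM2 on the same strand, which averaged 9.70 FPKM with metformin and 13.2 FPKM without in GPD1 cells. The largest log2 change in vector cells, 1.34, belonged to MRPL34. This gene was at 14.5, 14 and 14.9 FPKM with metformin, against 7.08, 2.13 and 8.08 FPKM without. In GPD1 cells MRPL34 was at 14.4, 3.94 and 4.09 FPKM with metformin, against 5.90, 6.39 and 6.78 FPKM without, so single libraries stood apart in both cell types. Without the second untreated vector library its log2 change in vector cells was 0.85 and not called (limma, adjusted p = 0.080).

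Among the genes that fell, MRPL35 had the largest log2 change in GPD1 cells and MRPL16 in vector cells. Both encode large-subunit proteins with bacterial counterparts, and MRPL16 is the counterpart of L16, which lies close to the peptidyl transferase centre in bacteria. MRPL35 (chr2:86199355-86213794, plus strand) was at 4.35, 4.46 and 3.67 FPKM in metformin-treated GPD1 cells, against 11.2, 13 and 12.1 FPKM in untreated GPD1 cells. In vector cells it was at 5.51, 5.62 and 5.73 FPKM with metformin, against 12, 11.5 and 12.3 FPKM without. Every treated library was below every untreated one. MRPL35 was 2.91-fold lower in GPD1 cells and 2.12-fold lower in vector cells (limma, adjusted p = 2.11e-08 and 2.24e-07).

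MRPL16 (chr11:59806135-59810872, minus strand) was at 6.53, 7.04 and 6.01 FPKM with metformin and 13.2, 14 and 14.8 FPKM without in GPD1 cells. It was at 6.10, 5.89 and 6.04 FPKM with metformin and 15.3, 16 and 14.2 FPKM without in vector cells. Its treated libraries lay at nearly the same level in both cell types. The log2 change was -0.99 ± 0.06 in GPD1 cells and -1.20 ± 0.06 in vector cells (SE, with adjusted p by limma of 1.26e-07 and 2.44e-08). Neither MRPL35 nor MRPL16 shares exons with another annotated gene.

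MRPL1, part of the stalk by which transfer RNA leaves the bacterial ribosome, averaged 1.32 ± 0.0675 FPKM with metformin and 4.08 ± 0.726 FPKM without in GPD1 cells. By the ratio of means it was 3.10-fold lower there, more than MRPL35. In vector cells it averaged 2.39 ± 0.348 and 4.61 ± 0.670 FPKM with and without it. MRPS31, a small-subunit protein specific to mitochondria, averaged 1.88 ± 0.158 and 5.22 ± 0.352 FPKM with and without metformin in GPD1 cells, and 2.49 ± 0.187 and 5.49 ± 0.240 FPKM in vector cells. These were 2.78-fold and 2.20-fold lower. Its copy MRPS31P4, with which reads could be shared, was at 1.23 ± 0.172 FPKM with metformin and 3.32 ± 0.528 FPKM without in GPD1 cells. MRPL50, MRPS14 and MRPL15 were 1.93-fold, 1.96-fold and 1.82-fold lower in GPD1 cells. In vector cells MRPL23 was 2.83-fold, MRPL47 2.40-fold, MRPS14 2.22-fold, MRPS7 2.01-fold and MRPL57 1.91-fold lower. By the ratio of means the fall of MRPL23 in vector cells exceeded that of MRPL16.

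MRPL12 fell to 109 ± 6.95 FPKM with metformin in GPD1 cells, against 142.6 ± 2.31 FPKM without. In vector cells it fell to 104.7 ± 6.35 FPKM, against 139.7 ± 8.30 FPKM (SD, n = 3 each). These calls rest on the scaling: with median-ratio factors the log2 changes were -0.05 in GPD1 cells and -0.16 in vector cells, and with upper-quartile factors 0.09 and -0.15, with none of the 4 called.

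The paralogs MRPS18A, MRPS18B and MRPS18C are all related to bacterial protein S18. In the classes by ancestry used here, only MRPS18C was counted with a bacterial counterpart. MRPS18A and MRPS18B were counted as mitochondria-specific. Products of MRPS18B and MRPS18C are placed in the small subunit and that of MRPS18A in the large one. MRPS18C fell to 1.13 ± 0.0679 FPKM with metformin, against 3.05 ± 0.191 FPKM without, in GPD1 cells, and to 1.60 ± 0.0244 FPKM, against 2.82 ± 0.153 FPKM, in vector cells. MRPS18A fell to 8.39 ± 0.974 FPKM, against 13.1 ± 0.370 FPKM, in GPD1 cells and to 7.03 ± 0.494 FPKM, against 13.6 ± 1.22 FPKM, in vector cells (SD, n = 3 each). Under upper-quartile factors the change of MRPS18A in GPD1 cells was -0.16 and not called. MRPS18B was lower by 0.40 and 0.18 on the log2 scale, and higher under upper-quartile factors in both, by 0.05 and 0.07, without a call. Its call in vector cells also ended without the first untreated vector library (limma, adjusted p = 0.051). MRPS18C shares 40.2% of its exon bases with ABRAXAS1 on the opposite strand, which averaged 1.65 FPKM with metformin and 1.28 FPKM without in GPD1 cells.

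MRPL58, a peptidyl-tRNA hydrolase that became part of the large subunit, was not called for metformin in either cell type, at 21.2 ± 2.09 FPKM with it and 18.8 ± 1.76 FPKM without in GPD1 cells. MRPS36, the dehydrogenase subunit, was not called in any of the 5 comparisons.

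**Figure D4:**
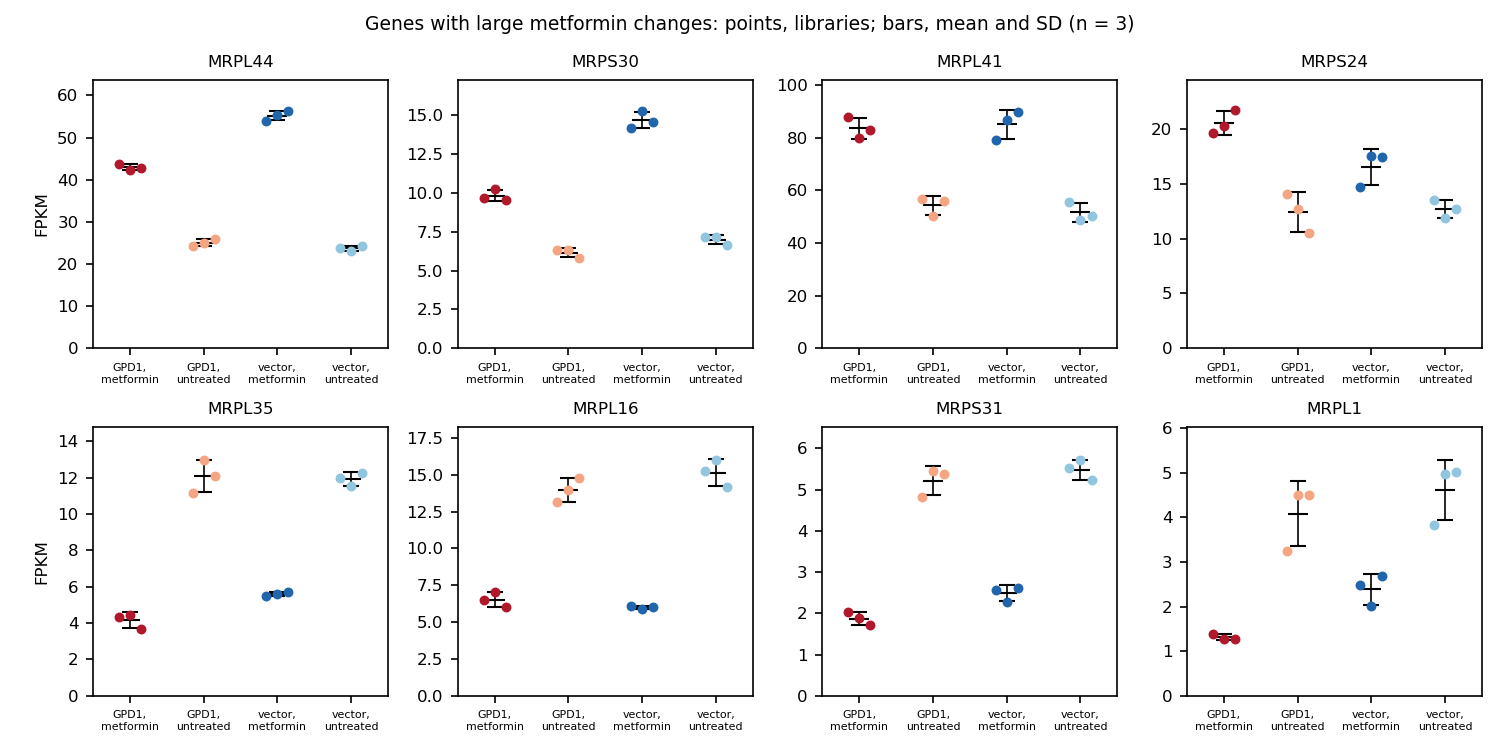
FPKM per library (vertical axes, starting at 0) of 4 genes higher with metformin (MRPL44, MRPS30, MRPL41, MRPS24) and 4 lower (MRPL35, MRPL16, MRPS31, MRPL1) in the 4 groups. Points are libraries and bars the mean and SD of 3. For MRPL44 the treated libraries are at 42.2 to 43.7 FPKM in GPD1 cells and 54.0 to 56.2 FPKM in vector cells, above all untreated libraries.

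By position in the ribosome, 6 of 26 small-subunit genes rose and 13 fell with metformin in GPD1 cells, and 13 of 51 large-subunit genes rose and 15 fell, beside 26.1% higher and 48% lower over all tested genes. In vector cells 5 small-subunit genes rose and 13 fell, and 10 large-subunit genes rose and 21 fell, beside 31.3% and 43.3% over all tested genes. By ancestry, 8 of the 46 genes with bacterial counterparts rose and 19 fell in GPD1 cells, and 11 of the 31 mitochondria-specific genes rose and 9 fell. In vector cells the counts were 8 and 23 of 46, and 7 and 11 of 31. The median log2 change was -0.13 for genes with bacterial counterparts and 0.07 for mitochondria-specific ones in GPD1 cells, and -0.23 and 0.05 in vector cells. No test was made between these classes, and all these counts carry the dependence on scaling given above.

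GPD1 against vector without metformin gave few calls: 2 of the 78 genes were higher, 4 lower and 72 not called, with 9.99% higher, 11.3% lower and 21.3% either way over all tested genes. The median log2 difference was -0.03, against -0.01 over all tested genes, and groups did not overlap for 13 genes, against 41.4% of all tested genes. MRPL53 was higher, at 11.6, 11.6 and 12.2 FPKM in untreated GPD1 cells, against 7.45, 8.49 and 10.3 FPKM in untreated vector cells. MRPS15 was higher, at 11.4, 10.5 and 11.5 FPKM, against 9.37, 9.17 and 8.57 FPKM. The lower ones were MRPL45, which is known to hold the ribosome to the inner membrane, at 21.5, 21.2 and 22.5 FPKM in untreated GPD1 cells against 24.8, 28.8 and 26.5 FPKM in untreated vector cells, and MRPS21, MRPS23 and MRPS30 with log2 differences of -0.20, -0.17 and -0.16. The calls of MRPL53, MRPS15 and MRPL45 held under all the scalings (limma, adjusted p = 0.0103, 0.00571 and 0.00263). Those of MRPS21, MRPS23 and MRPS30 did not, and leaving out single libraries left 1 to 5 genes lower. MRPS23's call ended without each of 9 libraries and those of MRPS21 and MRPS30 without each of 7.

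GPD1 against vector under metformin gave 21 genes higher, 19 lower and 38 not called, against 25% higher, 35% lower and 60% either way over all tested genes. Those shares are on the deposited scale. With upper-quartile factors 39 were higher and 8 lower, and with median-ratio factors 31 and 15. Upper-quartile factors averaged 0.808 in treated GPD1 cells and 0.957 in treated vector cells, so dividing by them moves all tested genes, not only the 78. Groups did not overlap for 47 of the 78 genes, against 64.8% of all tested genes. Under all the scalings 19 were higher and 8 lower, against 24.3% and 24.4% of all tested genes. The comparison shares its libraries with the metformin comparisons above.

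MRPL23, whose bacterial counterpart sits at the exit of the peptide tunnel, showed the largest log2 difference among the called genes. It was at 5.32, 4.65 and 5.20 FPKM in metformin-treated GPD1 cells, against 1.99, 2.91 and 2.09 FPKM in metformin-treated vector cells. Without metformin it was at 5.28, 5.83 and 6.89 FPKM in GPD1 cells, against 7.07, 6.14 and 6.57 FPKM in vector cells. Only the metformin-treated vector libraries were low. The difference under metformin was 2.17-fold (limma, adjusted p = 5.45e-05). The antisense gene MRPL23-AS1, which shares 2.86% of the exon bases of MRPL23, was at 1.48 ± 0.111 FPKM in GPD1 cells and 1.29 ± 0.421 FPKM in vector cells with metformin.

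MRPL11, at the base of the stalk where translation factors bind, was at 10.6, 14.2 and 10.3 FPKM in metformin-treated GPD1 cells, against 7.84, 7.06 and 7.47 FPKM in metformin-treated vector cells. Without metformin it was at 9.22, 8.26 and 8.37 FPKM in GPD1 cells, against 10.5, 8.46 and 9.26 FPKM in vector cells. Its difference under metformin was 1.57-fold. Others higher under metformin were MRPS15 (1.54-fold), MRPL58 (1.49-fold), MRPL33, MRPL54 and MRPS7 (1.40-fold each) and MRPL53 (1.32-fold).

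MRPL46, a mitochondria-specific large-subunit protein, was lower, at 1.20, 1.42 and 1.25 FPKM in metformin-treated GPD1 cells, against 2.57, 2.76 and 2.23 FPKM in metformin-treated vector cells. Without metformin it was at 2.59, 2.61 and 2.38 FPKM in GPD1 cells, against 2.57, 2.45 and 2.57 FPKM in vector cells. The low libraries were those of metformin-treated GPD1 cells. MRPL46 shares 11.3% of its exon bases with AC013489.1 on the same strand, which averaged 0.866 FPKM over the 12 libraries. MRPL50, also mitochondria-specific, averaged 4.35 ± 0.223 FPKM in GPD1 cells and 6.89 ± 0.609 FPKM in vector cells with metformin, and MRPS17 4.02 ± 0.179 and 6.58 ± 1.07 FPKM (SD, n = 3 each). MRPS17 shares exon bases with AC092647.5 and NIPSNAP2 on the same strand, 21.8% of them with AC092647.5. The higher of these partners averaged 10.45 FPKM over the 12 libraries. MRPL46, MRPS17 and MRPL50 were 1.96-fold, 1.64-fold and 1.59-fold lower (limma, adjusted p = 1.33e-05, 0.000349 and 3.70e-05). MRPL1, MRPS30 and MRPL32 were lower by 0.55, 0.53 and 0.37 on the log2 scale. MRPL15 and MRPL35 were lower by 0.38 and 0.36, but not called with upper-quartile factors.

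**Figure D5:**
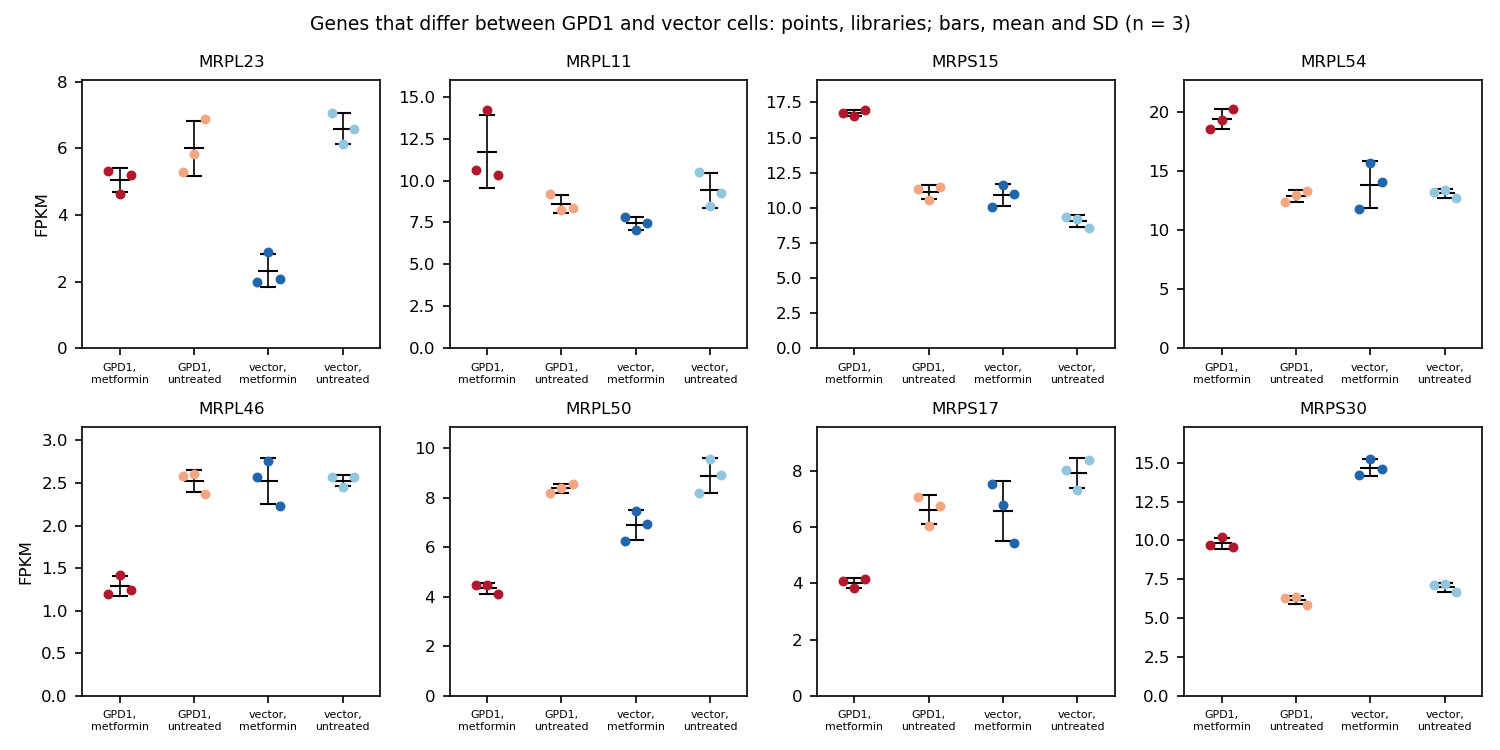
FPKM per library (vertical axes, starting at 0) of 4 genes higher (MRPL23, MRPL11, MRPS15, MRPL54) and 4 lower (MRPL46, MRPL50, MRPS17, MRPS30) in GPD1 than in vector cells under metformin. Points are libraries and bars the mean and SD of 3. MRPL23 is low in metformin-treated vector cells, at 1.99 to 2.91 FPKM, and MRPL46 in metformin-treated GPD1 cells, at 1.20 to 1.42 FPKM.

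The change with metformin in GPD1 cells minus that in vector cells, tested as an interaction, was positive for 15 genes, negative for 11 and not called for 52. On the deposited scale, 19.1% of all tested genes were positive, 26.8% negative and 45.9% either way. With upper-quartile factors 28 were positive and 4 negative, with median-ratio factors 23 and 8, and with the length trend removed 10 and 18. All 15 positive calls and 4 of the negative ones (MRPL44, MRPL46, MRPL50 and MRPS18C) held under all the scalings, against 19% positive and 19.6% negative among all tested genes. MRPL23 had the largest, 0.99 ± 0.16 (SE; limma, adjusted p = 0.000474), followed by MRPL11 at 0.69 ± 0.16, MRPL54 at 0.49, MRPS7 at 0.45, MRPL21 at 0.42 and MRPL45 at 0.41. MRPL44 and MRPS30 rose in both cell types, and their interactions were -0.43 ± 0.05 and -0.38 ± 0.07 (limma, adjusted p = 7.76e-05 and 0.00125), with that of MRPS30 not called under upper-quartile factors. MRPL46 was at -0.62, MRPL50 at -0.49 and MRPS18C at -0.37, and MRPL35 at -0.38, the last not called under upper-quartile factors.

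Other genes of mitochondrial translation were read from lists chosen by function. Their counts stand beside 26.1% higher and 48% lower over all tested genes with metformin in GPD1 cells, and 31.3% and 43.3% in vector cells. These shares are on the deposited scale. Of the 5 ribosomal proteins with other names, 1 rose and 3 fell with metformin in GPD1 cells, and 3 fell in vector cells, while at upper-quartile scaling 4 rose and 1 fell in GPD1 cells and 1 rose and 1 fell in vector cells. PTCD3, a small-subunit protein with pentatricopeptide repeats, averaged 4.86 ± 0.377 FPKM with metformin and 7.62 ± 0.198 FPKM without in GPD1 cells, and 4.04 ± 0.0955 and 7.29 ± 0.184 FPKM in vector cells. Of 15 translation factors, 3 rose and 8 fell in GPD1 cells, and 1 rose and 10 fell in vector cells (8 and 5 were higher under upper-quartile factors). The initiation factor gene MTIF3 rose by 0.43 and 0.30 on the log2 scale, and TSFM, the exchange factor of the elongation factor TUFM, fell by 1.09 and 1.14. Of 25 tested genes for assembly and ribosomal RNA modification, 4 rose and 14 fell in GPD1 cells, and 4 rose and 11 fell in vector cells, against 11 and 10 higher under upper-quartile factors. NOA1, a GTPase gene, averaged 24.3 ± 0.337 FPKM with metformin and 13.8 ± 0.260 FPKM without in GPD1 cells, and 26.7 ± 1.54 and 16.3 ± 0.238 FPKM in vector cells. The helicase gene DDX28 fell to 0.350 ± 0.181 FPKM, against 4.40 ± 0.135 FPKM, in GPD1 cells and to 1.28 ± 0.256 FPKM, against 5.36 ± 0.123 FPKM, in vector cells (SD, n = 3 each). Set beside these, 76 of 79 cytosolic ribosomal protein genes rose in GPD1 cells and 74 in vector cells, and all 13 genes of the mitochondrial genome fell in both.

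Between GPD1 and vector cells under metformin, 2 of the 5 ribosomal proteins with other names were higher, and 5 of 15 translation factors were higher and 1 lower. Of the 25 assembly genes 5 were higher and 8 lower, beside 25% higher and 35% lower over all tested genes. Without metformin 1 ribosomal protein with another name and 1 translation factor were lower, and 1 assembly gene was higher and 3 were lower, beside 9.99% and 11.3%. The interaction was called for 4 translation factors (positive) and 12 assembly genes (5 positive, 7 negative), beside 45.9% of all tested genes.

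Some of the 78 genes varied widely within groups. The highest library was 4.08 times the lowest of the same group for MRPL49, 3.79 times for MRPL34, 2.53 times for MRPS2, 2.21 times for MRPL10, 2.20 times for MRPL30, 2.15 times for MRPL36 and 2.14 times for MRPL19. MRPL10 was at 18.4, 10.4 and 16.1 FPKM in metformin-treated vector cells, against 11.4, 6.12 and 5.18 FPKM in untreated vector cells. These libraries overlapped, and MRPL10 was called higher with metformin (limma, adjusted p = 0.015), a call that ended without each of 3 libraries (treated replicate 1 and untreated replicates 2 and 3 of vector cells). MRPL49 shares exons with FAU, a cytosolic ribosomal protein gene on the opposite strand that averaged 57.4 FPKM. In all, 41 of the 78 genes share exon bases with another annotated gene, among them MRPL51, which shares 31.3% with NCAPD2 on the opposite strand. NCAPD2 averaged 16.9 ± 0.167 FPKM with metformin and 37.6 ± 0.334 FPKM without in GPD1 cells, and MRPL51 23.9 ± 1.71 and 32.5 ± 1.12 FPKM (SD, n = 3 each). The counting is not stated to use strand, so reads of such pairs cannot be told apart.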

How the data were processed

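Polyadenylated RNA of 12 A549 libraries was analysed; the series also has 12 of 786-O cells, not analysed here. The submitters' processing notes name the build GRCh38 and the tools HISAT2 2.1.0, CASAVA 1.8 and edgeR, with no version for the last. They do not tie a tool to the deposited values. The authors deposited 1 table of 58302 genes whose values were taken as FPKM, from the values themselves, since the header names no unit. Of the low values times exon length, 65.0 to 69.8% per library were whole multiples of 1 step within 0.02, and the rest were not. The depth estimate rests on the same steps. They could be RPKM. Exon lengths, loci and overlaps came from GENCODE release 29, which has the same locus for 97.2% of the genes. The planned test for counts was replaced by the one for FPKM.

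Genes that averaged 1 FPKM or more were tested on log2(FPKM + 1) with limma 3.58.1 (R 4.3.3) and an intensity trend, in a model of 4 group means, with Benjamini-Hochberg adjustment over all 12607 genes in each of 5 comparisons. Folds are ratios of mean FPKM and log2 changes are of FPKM + 1, which understates the change of low genes. One read on 1 kb was worth 0.0555 to 0.0752 FPKM, so values near 1 FPKM rest on few reads. The members and the companion lists were chosen with earlier results of these data known. Genes are named as the 8 largest called changes per direction without overlap between the groups' libraries (6 for the interaction), the 3 highest and lowest means, MRPL12, MRPL58, MRPS36 and the MRPS18 paralogs. MRPL10, MRPL43, MRPL49, MRPL51, MRPL52 and others outside this rule were chosen after their values were seen. The alternatives were other scalings, filter, pseudocount, samples, a replicate block, a minimum change, length and leaving out each library. Promoter letters came from RefSeq (GRCh38.p14). The fit was tested on simulated data in which a small part of the genes was changed in 1 group, with no shift in scaling. That simulation cannot bear on how the calls depend on scaling.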

Additional observations from a re-analysis of the deposited data

Results flagged for a closer look

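For 26 of the 78 genes the metformin change differed between GPD1 and vector cells by the interaction test (limma, adjusted p under 0.05), against 45.9% of all tested genes. The change in GPD1 cells was above that in vector cells, on the log2 scale, by 0.993 for MRPL23, 0.688 for MRPL11, 0.489 for MRPL54, 0.455 for MRPS7, 0.423 for MRPL21, 0.407 for MRPL45, 0.404 for MRPL57, 0.374 for MRPL28, 0.363 for MRPL33, 0.360 for MRPS33, 0.330 for MRPL24, 0.315 for MRPL43, 0.306 for MRPS15, 0.291 for MRPL48 and 0.223 for MRPL37. All of these held under the 3 scalings tried, but those of MRPL28, MRPL33, MRPL37, MRPL43 and MRPL57 ended with no filter and with the length trend removed, those of MRPL28 and MRPL43 also with a replicate block, and each of these 5 ended in 7 to 9 of the 12 fits with 1 library left out. The difference was -0.617 for MRPL46, -0.486 for MRPL50, -0.429 for MRPL44 and -0.370 for MRPS18C, which also held under them. It was -0.379 for MRPL35, -0.377 for MRPS30, -0.329 for MRPS6, -0.315 for MRPL18, -0.305 for MRPS22, -0.250 for MRPL32 and -0.222 for MRPS18B, which did not hold under all of them. Of these, the calls of MRPS6 and MRPS18B also ended with no filter and each in 9 of the 12 fits with 1 library left out. The calls of MRPL35, MRPS30, MRPL18, MRPS22 and MRPL32 ended in none of those fits. MRPL11 was called higher with metformin in GPD1 cells and lower in vector cells, but the call in vector cells ended under median-ratio and upper-quartile factors, with no filter and without each of 4 libraries.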

How the results depend on the processing

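With median-ratio factors the genes higher and lower with metformin numbered 33 and 17 in GPD1 cells and 32 and 19 in vector cells, the interaction was positive for 23, and 1 gene was lower in GPD1 than in vector cells without metformin. With upper-quartile factors they numbered 41 and 13, and 32 and 19, with 39 and 8 for GPD1 against vector under metformin, 28 and 4 for the interaction, and 1 lower without metformin. With no filter 1 was lower without metformin, and with the length trend removed 18 interactions were negative. With an absolute log2 change of at least 0.5 the counts were 9 and 16 for metformin in GPD1 cells, 9 and 17 in vector cells, 0 and 0 for GPD1 without metformin (limma, with 2 and 4 past the adjusted p alone), 4 and 5 under metformin and 2 and 1 for the interaction. Leaving out single libraries gave 17 to 20 higher and 27 to 30 lower with metformin in GPD1 cells, 13 to 16 and 29 to 34 in vector cells, 2 to 3 and 1 to 5 for GPD1 without metformin, 15 to 21 and 17 to 21 under metformin, and 10 to 16 and 9 to 13 for the interaction. A call turned only for MRPS23, lower with metformin in GPD1 cells but called higher with upper-quartile factors. Among the named genes, directions turned for MRPS18B (0.054 with upper-quartile factors in GPD1 cells, and 0.063 and 0.072 with median-ratio and upper-quartile factors in vector cells), MRPL12 (0.089), MRPL42 (0.301) and MRPS26 (-0.011 with the length trend removed) under metformin, and for MRPL41 in GPD1 against vector cells under metformin (0.214 with upper-quartile factors). Over single genes 872 of 969 results with all libraries and 1267 of 1320 with a library left out kept their direction and their side of the threshold. After each gene's group mean was subtracted, what remained correlated at -0.07 to 0.06 between same-numbered libraries of the groups compared. This showed no pairing by replicate number but, with 3 libraries per group, could not exclude one. With a replicate block, 47 of 47 calls were kept for metformin in GPD1 cells, 47 of 49 in vector cells, 5 of 6 for GPD1 without metformin, 37 of 40 under metformin and 24 of 26 for the interaction. The cause of these changes was not tested. Depth limits the genes near 1 FPKM.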
